A study of Homo sapiens with 10 samples.

Results

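The comparison described here is BACH1 knockout (KO) against control (WT) MDA-MB-231 cells grown with glucose. It uses 5 of the 10 RNA-seq libraries of the series, 2 WT clones and 3 KO clones, each kept for 40 hours at 4.5 g/liter glucose. MDA-MB-231 is a human breast cancer line that lacks hormone receptors. The KO clones were made with Cas9 and guide RNAs against BACH1 and picked as monoclones by Western blot, the WT clones are the controls called Ctrl in the labels, and all 10 libraries come from these same 5 clones. Each library is 1 clone, so a clone is the replicate and no clone was sequenced again at this glucose level. The other 5 libraries hold the same clones without glucose (0 g/liter) and enter the estimate of the spread, a test of interaction with glucose and side-by-side readings. Genes were taken into the comparison if they reached 1 TPM in 2 of the 5 libraries, which kept 12693 of 36432 gene symbols. TPM is an abundance per transcript length, and differences are given as KO minus WT on log2(TPM + 1), a scale that understates the change of genes near 1 TPM.

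BACH1 is a basic leucine zipper factor that pairs with small MAF proteins on antioxidant response elements and represses the genes beside them. Heme binds BACH1 and releases it from DNA, so that enzymes which degrade heme, store iron or build glutathione are made when heme or oxidants are in excess. In breast cancer cells BACH1 is also known for genes it activates, many of them tied to invasion. A knockout can therefore show genes that are derepressed and genes that are lost, and the ranking below takes these directions in turn. In bulk RNA a lower level can come from fewer expressing cells or from less RNA per cell, which cannot be told apart here.

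The libraries carried the marks of the line. All 10 of 10 line markers were tested, with VIM, an intermediate filament of mesenchymal cells, between 1321 and 1991 TPM and CD44 between 795 and 889 TPM. The luminal receptors ESR1 and PGR stayed at or under 0.516 and 0.853 TPM, and the epithelial cadherin CDH1 at or under 0.305 TPM. Of 14 luminal markers 6 were tested all the same, among them GATA3 at 17.4 to 40.2 TPM, EPCAM at 6.72 to 11.3 TPM and the keratins KRT8 and KRT18, described below. Of 10 markers of kidney-derived packaging cells, used elsewhere in the study, 1 reached the threshold for testing, and of 14 blood, vessel and fibroblast markers 3 did. In every library 12259 to 12535 genes reached 1 TPM, and mitochondrial transcripts made up 26.1 to 27.1% of all TPM in WT and 26.9 to 29.7% in KO clones, the highest share in KO clone 1. Since TPM values carry no read totals, the depth of the libraries is unknown.

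BACH1 transcript was lower in the knockouts but was not absent. The WT clones had 8.61 and 8.13 TPM and KO clones 1, 2 and 3 had 5.18, 2.84 and 3.42 TPM, a difference of -0.99 (standard error 0.26), with no overlap between the groups and no call by limma. Without KO clone 1 at both glucose levels the difference was -1.19 and was called (adjusted p = 0.0379 by limma, between 0.0379 and 1.00 over all alternatives). Frameshifts at a cut site can leave a transcript in place, so this level does not measure the protein. Of the 6 genes nearest to BACH1 on chromosome 21 (N6AMT1, LTN1, RWDD2B, USP16, CCT8 and MAP3K7CL) the differences lay between -0.12 and 0.23. Its partners and competitors on DNA differed little. NFE2L2, the activator that binds the same elements, was at 88.9 and 84.4 TPM in WT and 85.8, 99.6 and 103 TPM in KO clones. The small MAF gene MAFG was at 18.4 and 20.0 against 14.4, 21.1 and 22.3 TPM and KEAP1, which marks NFE2L2 for degradation, at 54 and 59 against 56.5, 58 and 60.9 TPM, and in both the groups overlapped.

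The KO clones differed from each other about as much as from WT, or more. The WT clones differed by at least 1 on the log2 scale in 114 genes and each WT clone from each KO clone in 213 to 342. KO clones 2 and 3 differed in 221 genes, whereas KO clone 1 differed from KO clone 2 in 647 and from KO clone 3 in 728. KO clone 1 thus stood apart from the other knockouts, and the main counts are given below with and without it.

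Against this spread few genes passed. limma called 5 genes higher (0.0394% of those tested) and 5 lower (0.0394%) in KO at an adjusted p under 0.05. The higher ones were HMOX1, FTH1, GCLM, AP000781.2 and RNA5SP217, and the lower ones TIMP3, KRT19, CST7, ENG and RNA5SP435. At an unadjusted p under 0.05, 122 genes (0.961%) were higher and 294 (2.32%) lower. With KO clone 1 left out at both glucose levels, an alternative chosen after the clone pairs had been seen, 21 genes were called higher and 31 lower, and all 10 of the former calls were among them. Leaving out WT clone 1 reduced the calls to HMOX1 and TIMP3, and leaving out WT clone 2 reduced them to 2 higher and 3 lower, fits in which the lone WT library is assumed to vary like the other groups. Fitted on the 5 libraries alone, limma called HMOX1, FTH1 and AP000781.2 higher and 0 genes lower, with 137 higher and 365 lower at an unadjusted p under 0.05. An exact permutation test of 3 clones against 2 has 10 arrangements and cannot give a two-sided p below 0.2. The labels say nothing of separate cultures beyond the clones, so p-values measure the spread between these clones only. The main fit pooled this spread over both glucose levels and took libraries of the same clone as independent. Deviations of the same clone at both levels correlated at 0.652, 0.455 and 0.541 in KO clones 1, 2 and 3 and at 0.12 in WT clones. With the clone as a block the calls were again 5 higher and 5 lower.

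Ranking by overlap gave a longer list. In 785 genes (6.18%) every KO value lay above every WT value, and in 1894 genes (14.9%) every KO value lay below. This imbalance depended on scaling and on KO clone 1. The median difference over all tested genes was -0.03, and with median-ratio scaling the counts were 1235 higher and 1222 lower. Without KO clone 1, where fewer libraries can overlap, they were 3230 higher (25.4%) and 3198 lower (25.2%). Differences of at least 1 were left in 15 non-overlapping genes that were higher (0.118%) and 45 that were lower (0.355%). By the reference annotation 7 of the 15 and 26 of the 45 are protein-coding, 5 and 7 are pseudogenes, and 3 and 12 have symbols not matched there. In 6 of the 15 and 12 of the 45 the nearest KO and WT values were themselves at least 1 apart.

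Heme degradation and iron storage led the derepressed genes. HMOX1, heme oxygenase 1, had 6.58 and 8.78 TPM in WT clones 1 and 2, and 274, 470.4 and 394 TPM in KO clones 1, 2 and 3. The lowest KO clone lay far above the highest WT clone, and the group means were 7.68 ± 1.56 and 379 ± 99.1 TPM (SD, n = 2 and n = 3 clones), a 49.4-fold difference in TPM. On the log2 scale the difference was 5.43 (standard error 0.24, adjusted p = 2.17e-05 by limma), and the call held without any 1 of the 5 libraries (adjusted p at most 0.00099). HMOX1 lies on chromosome 22 from 35380361 to 35394214 of GRCh38, on the plus strand. Its 10 nearest expressed neighbours had a median difference of -0.02, between -0.25 and 0.10.

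FTH1, the ferritin heavy chain that oxidizes and stores iron, was at 2104 and 2269 TPM in WT and 8072, 7340.2 and 7641 TPM in KO clones. The KO values lay within a narrow band, 3.51-fold above WT on average, with a log2 difference of 1.81 (standard error 0.15, adjusted p = 0.00184 by limma, 0.0707 without WT clone 1, the highest over all alternatives). By its mean FTH1 went from rank 32 to rank 12 among the tested genes, and in KO it took 0.734 to 0.807% of all TPM. FTL, the ferritin light chain, was at 1836 and 1826 TPM in WT and 2005, 1584 and 1782 TPM in KO clones, and these groups overlapped. The ratio of FTH1 to FTL within a library was 1.15 and 1.24 in WT and 4.03, 4.63 and 4.29 in KO clones, which no scaling of the library can change. FTH1 has many pseudogenes whose reads could be shared with it. Together those named FTH1P in the table held at most 5.89 TPM in any of the 5 libraries.

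Other members of the heme and iron list moved less and none of them was called. SLC48A1, which carries heme across endosomal membranes, was at 8.9 and 7.56 TPM in WT and 15.7, 13.6 and 12.8 TPM in KO clones, a difference of 0.71 (standard error 0.22, unadjusted p = 0.00981 by limma). The transferrin receptor TFRC was at 117 and 118 against 153, 143 and 146 TPM, and ALAS1, the first enzyme of heme synthesis, at 47.5 and 51.3 against 58.9, 62.8 and 64.9 TPM. In all 3 genes every knockout lay above both controls. Of the 28 tested genes of heme and iron handling, 6 were non-overlapping and higher and 2 lower, beside 6.18% and 14.9% of all tested genes. The median was -0.03 beside -0.03 over all genes. Without KO clone 1 the counts were 9 and 5, beside 25.4% and 25.2% of all tested genes. By its median the list was not raised, although its share of higher genes exceeded that of all genes with every clone. Its large differences sat in HMOX1 and FTH1. The summed TPM of the list was 5465 and 5641 in WT against 11758, 11012 and 11342 in KO clones, most of it FTH1.

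**Figure D1:**
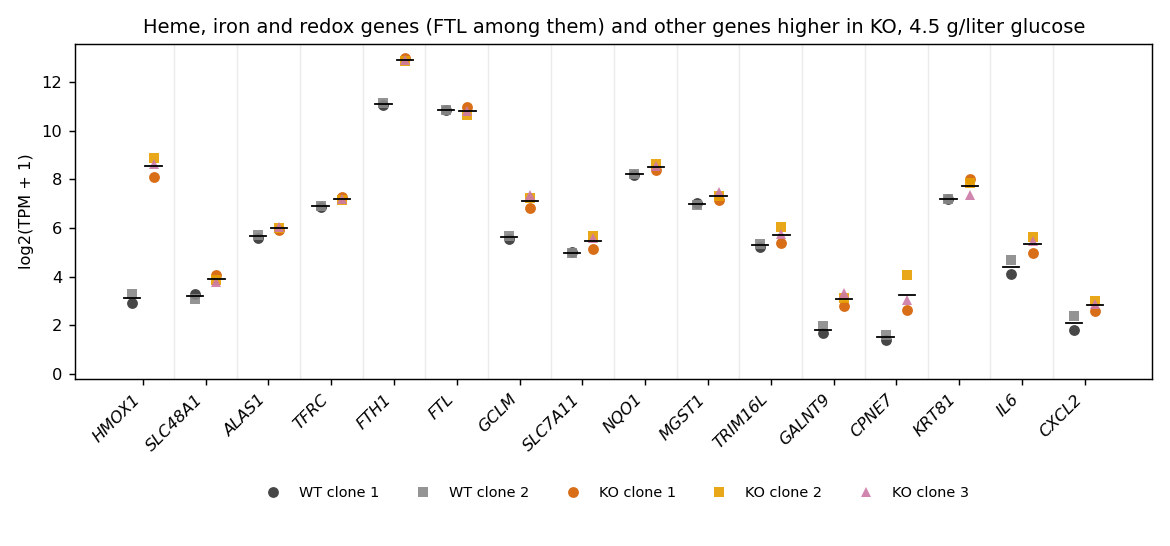
Expression of 16 genes in the 5 libraries at 4.5 g/liter glucose, as log2(TPM + 1). Each point is 1 clone, WT clones to the left and KO clones to the right of each gene, and bars are group means. HMOX1, FTH1 and GCLM, the genes here that limma called, stand clear of WT in all 3 KO clones, while the FTL groups overlap. Of the remaining genes CPNE7 differs most, by more than GCLM, with unequal KO clones.

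The synthesis of glutathione was represented by a regulatory subunit. GCLM, the modifier subunit of glutamate-cysteine ligase, was at 45.9 and 50.6 TPM in WT and 111, 147 and 164 TPM in KO clones. Every knockout more than doubled the control level, by a log2 difference of 1.51 (standard error 0.20, adjusted p = 0.0455 by limma). This call rested on few libraries, since without WT clone 1, WT clone 2, KO clone 2 or KO clone 3 the adjusted p by limma was 0.718, 0.395, 0.238 and 0.201 (0.0022 to 0.718 over all alternatives). GCLC, the catalytic subunit of the same enzyme, was at 16.2 and 18.4 against 16.3, 18.3 and 20.1 TPM and its groups overlapped. SLC7A11, which imports the cystine that glutathione needs, was at 31.4 and 30.3 against 34.1, 50.2 and 47.2 TPM, close to WT in KO clone 1.

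Some detoxifying enzymes showed small differences in the same direction. NQO1, a quinone reductase, was at 290.0 and 298 TPM in WT and 334, 391 and 373 TPM in KO clones (difference 0.31, unadjusted p = 0.0215 by limma). MGST1, a microsomal glutathione transferase, was at 129.6 and 121 against 139, 158 and 178 TPM (difference 0.33, unadjusted p = 0.0139 by limma). TRIM16L, which shares sequence with TRIM16, was at 36.3 and 39.9 against 40.3, 64.7 and 52.7 TPM. The thioredoxin reductase TXNRD1 and sulfiredoxin SRXN1 overlapped between the groups, at 259 and 271 against 230.5, 352 and 297 TPM and 43.2 and 45.3 against 39.9, 45.6 and 56 TPM. TALDO1 of the pentose phosphate pathway was lower, by -0.24 on the log2 scale and without overlap. Of 47 tested antioxidant genes 6 were non-overlapping and higher and 4 lower, 1 was called, and the median was 0.05. Without KO clone 1 the counts were 21 and 9, beside 25.4% and 25.2% of all tested genes. The share that was higher, like that of the heme list, exceeded the 6.18% of all tested genes with every clone, but the members were chosen with results known and nothing further is read from it.

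Promoter sequence was compared where RefSeq gave it (GRCh38.p14, 250 bases before to 50 bases after a start). Entries matched 9525 of the 12693 tested genes, 4 of the 15 large higher genes and 16 of the 45 large lower genes. HMOX1, FTH1, KRT19 and CST7 had no entry. The core of the antioxidant response element was searched as TGACNNNGC on both strands and was present in 19.5% of the tested genes with an entry. Among the large differences it was in 3 of 4 higher genes, GCLM, GALNT9 and EEF1E1-BLOC1S5, and in 4 of 16 lower genes, ENG, MFAP2, SSX1 and TENM2. EEF1E1-BLOC1S5 was at 0 and 2.08 TPM in WT and 2.85, 2.17 and 2.69 TPM in KO clones. Its difference thus rested on WT clone 1, and no enrichment is read from so few entries. The AP-1 site, searched as TGANTCA on both strands, was in 7.00% of tested genes, in none of the 4 and in 2 of the 16, DMD and MFAP2. A match describes letters and shows no binding. The GCLM promoter is printed whole because GCLM is the called derepressed gene with an entry, and its match, in capitals, starts 34 bases before the annotated start (chr1:93909381-93909680, minus strand).
GCLM promoter: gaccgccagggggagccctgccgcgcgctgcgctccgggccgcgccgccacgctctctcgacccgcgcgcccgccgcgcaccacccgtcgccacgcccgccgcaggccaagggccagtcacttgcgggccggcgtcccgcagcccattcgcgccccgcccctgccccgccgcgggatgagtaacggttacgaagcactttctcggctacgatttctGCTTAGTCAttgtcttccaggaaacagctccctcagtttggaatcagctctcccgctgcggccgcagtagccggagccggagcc
Shorter windows with the match in capitals show a second higher gene and the called lower gene that carries it, GALNT9 at chr12:132329571-132329609 and ENG at chr9:127854766-127854804, both on the minus strand.
GALNT9: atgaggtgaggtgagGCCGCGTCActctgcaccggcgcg
ENG: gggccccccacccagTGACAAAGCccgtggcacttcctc
In GCLM and GALNT9 the match reads on the strand opposite to the gene and in ENG on the same strand. The same letters thus stood before genes of both directions.

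Outside redox metabolism the higher genes had little in common. GALNT9, which adds the first sugar of mucin-type glycans, was at 2.18 and 2.9 TPM in WT and 5.99, 7.69 and 9.19 TPM in KO clones, a difference of 1.27 (standard error 0.18, adjusted p = 0.0581 by limma). Over all alternatives its adjusted p by limma lay between 0.0154, without both libraries of KO clone 1, and 1.00, without WT clone 1. CPNE7, a calcium-dependent phospholipid-binding protein, was at 1.67 and 2.06 against 5.12, 15.9 and 7.32 TPM, with KO clone 2 far above the others. The hair keratin KRT81 was at 146 and 146 against 254, 228 and 163 TPM, nearest to WT in KO clone 3. BHLHE41, a repressor of the circadian clock, was at 2.54 and 0.654 against 2.55, 4.53 and 6.85 TPM, so KO clone 1 was barely above WT clone 1. PDCD4, an inhibitor of translation, was at 33.3 and 39.6 against 49.8, 49.2 and 59.7 TPM and the tubulin gene TUBA1A at 80.7 and 84.5 against 85.4, 166 and 113 TPM.

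Among cytokines, IL6 was at 16.2 and 25 TPM in WT and 30.4, 47.9 and 43.7 TPM in KO clones, a difference of 0.95 (standard error 0.32). The neutrophil chemokine CXCL2 was at 2.47 and 4.22 against 4.95, 7.03 and 6.35 TPM. CXCL3 was at 0.761 and 1.63 against 2.04, 1.81 and 1.68 TPM. Of 26 tested cytokine and chemokine genes 4 were non-overlapping and higher, 2 lower, none called, beside 6.18% and 14.9% of all tested genes. The counts without KO clone 1 were 13 and 2, beside 25.4% and 25.2% of all tested genes. The median was 0.32, with 21 of 26 above 0, but it depended on WT clone 1, which lay below WT clone 2 in 24 of the 26 genes. The mean of the KO clones was a median of 0.55 above WT clone 1 and of 0.03 above WT clone 2. IL11, which belongs to the same list, went the other way (162 and 201 against 119, 136 and 118 TPM). The medians of the 3 KO clones were 0.04, 0.37 and 0.33, so KO clone 1 was closest to WT.

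Several large higher values belonged to transcripts whose counting is uncertain. AP000781.2, a symbol with no match in the reference, was at 0.329 and 0.436 TPM in WT and 25.2, 32 and 24.6 TPM in KO clones (difference 4.35, adjusted p = 0.0031 by limma, 0.0924 without WT clone 1 and 0.0535 without WT clone 2). The 5S ribosomal pseudogene RNA5SP217 was listed at 0 in both WT clones and at 6.97, 4.84 and 3.18 TPM in KO clones (adjusted p = 0.00443 by limma, 0.0961 without WT clone 1). From the 5 libraries alone, the adjusted p of RNA5SP217 was 0.208 by limma. RNA5SP217 is very short (chromosome 6, 127317883 to 127317973, minus strand), so that few reads make several TPM. RPL3P4 and CKS1BP3 are processed pseudogenes. CKS1BP3 was at 8.17 and 9.44 against 27.4, 38.1 and 43.2 TPM and RPL3P4 differed by 2.95, with WT clones at 1.14 and 17.8 TPM, and reads of a parent gene can be shared out to them. SMIM11B and its near-identical copy SMIM11A differed in opposite directions, at 4.33 and 1.08 against 4.68, 16.8 and 11.9 TPM and 9.16 and 16.4 against 9.05, 2.76 and 6.31 TPM, so neither is read as a change.

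The genes lost in the knockout were led by a protease inhibitor, a keratin, a cystatin and a TGF-beta co-receptor. TIMP3, which inhibits matrix metalloproteinases and ADAM proteases, was at 3.47 and 4 TPM in WT and was listed at 0 in KO clones 1 and 2 and at 0.0161 TPM in KO clone 3. Its difference was -2.23 (standard error 0.16, adjusted p = 0.00105 by limma), and the call held without any 1 of the 5 libraries (adjusted p at most 0.0303). When the 5 libraries at 4.5 g/liter were fitted alone, TIMP3 was not called (adjusted p = 0.082 by limma). TIMP3 lies on chromosome 22 from 32801705 to 32863041, and its 10 nearest expressed neighbours had a median difference of -0.09. The related inhibitors TIMP1 and TIMP2 overlapped between the groups, at 312 and 315 against 189.7, 359 and 411 TPM and 203 and 203 against 208, 199.6 and 245 TPM.

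KRT19, a keratin of simple epithelia, was at 23 and 18.4 TPM in WT and 3.45, 4.43 and 4.91 TPM in KO clones, 4.86-fold lower in KO. The difference was -2.05 (standard error 0.18, adjusted p = 0.0031 by limma, 0.0924 without WT clone 1). From the 5 libraries alone, the adjusted p of KRT19 was 0.082 by limma. With KRT81 higher, the ratio of KRT81 to KRT19 was 6.33 and 7.94 in WT and 73.7, 51.4 and 33.3 in KO clones. The more abundant keratins showed no such pattern. KRT7 was at 465 and 494 against 525, 531 and 353 TPM and KRT18 at 309 and 316 against 291, 257 and 170.2 TPM, while KRT8 differed by -0.31. Of these KRT18 alone did not overlap. Of 19 tested keratin and epithelial genes 1 was non-overlapping and higher and 4 lower, with a median of -0.07, near the 6.18% and 14.9% of all tested genes. The counts without KO clone 1 were 4 and 7, beside 25.4% and 25.2% of all tested genes.

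CST7, cystatin F, an inhibitor of lysosomal cysteine proteases, was at 16.9 and 14.1 TPM in WT and 3.95, 3.17 and 4.19 TPM in KO clones, 4.11-fold lower in KO. The groups were far apart for so low a gene, but the adjusted p of 0.0405 by limma rose above 0.05 without any 1 of the 5 libraries, to at most 0.718, and with median-ratio scaling it was 0.074 (0.00434 to 0.718 over all alternatives). ENG, endoglin, a co-receptor for TGF-beta family ligands, was at 2.66 and 2.6 TPM in WT, at 0.0814 TPM in KO clone 1 and listed at 0 in the other KO clones (difference -1.82, adjusted p = 0.00314 by limma, 0.0961 without WT clone 1 and 0.0838 without WT clone 2). The 5S pseudogene RNA5SP435 was at 3.65 TPM in WT clone 1, somewhat lower in WT clone 2 and listed at 0 in KO (difference -1.95, adjusted p = 0.00565 by limma, 0.12 without WT clone 1). From the 5 libraries alone, the adjusted p by limma was 0.082 for CST7, 0.173 for ENG and 0.264 for RNA5SP435. The neighbours of CST7 and ENG had median differences of -0.06 and -0.12.

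**Figure D2:**
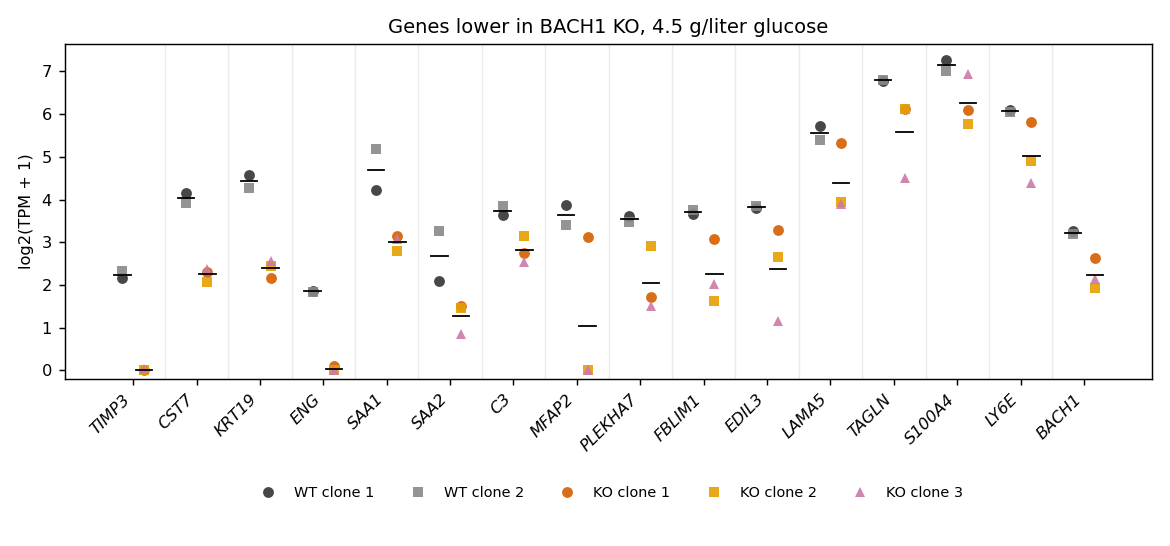
Expression of 16 genes lower in KO, as log2(TPM + 1) in the 5 libraries at 4.5 g/liter glucose. Points are clones, WT to the left and KO to the right of each gene, and bars are group means. TIMP3, CST7, KRT19 and ENG are low in every KO clone, whereas MFAP2, LAMA5 and LY6E are near WT in KO clone 1.

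Some acute-phase and complement genes had lower values in every knockout, without a call. SAA1, serum amyloid A1, was at 17.5 and 35.5 TPM in WT and 7.84, 6 and 7.5 TPM in KO clones, a difference of -1.69 (standard error 0.36, adjusted p = 0.601 by limma). SAA2, a close copy of SAA1 whose reads can be confused with it, was at 3.25 and 8.64 against 1.83, 1.74 and 0.798 TPM. In both genes WT clone 2 stood well above WT clone 1. Complement C3 was at 11.4 and 13.5 against 5.72, 7.88 and 4.79 TPM and RARRES2, the chemoattractant chemerin, at 2.07 and 1.15 against 0.199, 0.188 and 0.276 TPM. Of 16 tested genes of the list none was higher and 5 were lower without overlap, none called, with a median of -0.04, beside 14.9% of all tested genes that were lower. The counts without KO clone 1 were 1 higher and 6 lower, beside 25.4% and 25.2% of all tested genes.

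Several genes of matrix, adhesion and cytoskeleton were among the large lower differences, with unequal knockouts. MFAP2, a protein of elastic microfibrils, was at 13.6 and 9.6 TPM in WT and 7.76 TPM in KO clone 1, and was listed at 0 in KO clones 2 and 3. LAMA5, the laminin alpha 5 chain, was at 51.8 and 40.9 against 38.8, 14.4 and 13.9 TPM. In both genes KO clone 1 stayed near WT. PLEKHA7 of the adherens junction was at 11.2 and 10.2 against 2.3, 6.56 and 1.86 TPM, and here KO clone 2 was nearest to WT. FBLIM1, which links filamin to adhesions, was at 11.7 and 12.5 against 7.47, 2.11 and 3.09 TPM, and EDIL3, an integrin ligand of the matrix, at 12.9 and 13.4 against 8.83, 5.33 and 1.24 TPM.

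The actin-binding transgelin TAGLN was at 108 and 111 TPM in WT and 68, 69.1 and 21.5 TPM in KO clones. HAS2, which makes hyaluronan, was at 11 and 10.9 against 9.01, 4.77 and 1.4 TPM. In both, KO clone 3 was lowest by far. TENM2, a teneurin adhesion receptor, was at 25.1 and 21.8 against 21.3, 19.9 and 0.744 TPM, so its difference sat in KO clone 3. S100A4, a calcium-binding protein of motile cells, was at 154 and 127 against 67.7, 53.6 and 122 TPM, with KO clone 3 close to WT. SPARC, a secreted matrix protein, was at 4.14 and 3.93 against 1.79, 1.54 and 0.778 TPM. Type IV collagen genes were lower by less, with COL4A1 at 58.1 and 50.9 against 50.5, 34.7 and 21.1 TPM and COL4A2 at 197 and 182 against 178, 133 and 95.2 TPM. Of 36 tested matrix and integrin genes 1 was non-overlapping and higher and 7 lower, of 21 mesenchymal genes none and 3, and none was called. These counts lie near the 6.18% and 14.9% of all tested genes. Without KO clone 1 they were 5 and 13 for matrix and 2 and 9 for mesenchymal genes, beside 25.4% and 25.2% of all tested genes.

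Signalling genes among the lost were likewise few. GABBR2, a GABA-B receptor subunit, was at 11 and 5.5 against 2.77, 1.37 and 2.6 TPM and the chemerin-binding receptor CCRL2 at 22.4 and 27.2 against 10.2, 18.8 and 8.4 TPM. The stress cytokine GDF15 was at 2.57 and 3.35 against 0.156, 1.12 and 1.95 TPM, lowest in KO clone 1, and the endotoxin receptor TLR4 at 3.01 and 3.17 against 2.15, 1.67 and 0.608 TPM, lowest in KO clone 3. LY6E, a membrane-anchored surface protein, was at 67.6 and 64.8 against 55.2, 28.7 and 19.8 TPM. Adrenomedullin, ADM, was at 86.8 and 88.6 against 85.5, 43.5 and 32.2 TPM. Both lay near WT in KO clone 1 and well below it in the other clones. GGT5, a gamma-glutamyltransferase, was at 1.52 and 1.09 against 0.0597, 0.238 and 0.134 TPM, and GALNT14 was at 1.14 and 1.07 TPM in WT and listed at 0 in all KO clones.

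Genes that the text of the study names as activated by BACH1 were mostly lower in KO. Of 9 such genes, 6 passed the filter, 5 of them non-overlapping and lower, 1 called and a median of -0.73. Over all tested genes 14.9% were non-overlapping and lower, and 0.0394% were called lower. CEMIP, NGFR, CXCL14, CST7 and PGF were followed by the study on these libraries, so their counts are no independent evidence, while MMP1, CXCR4, IL11 and HK2 are cited there from earlier work. CEMIP, which takes part in hyaluronan breakdown, had 1.92 and 1.86 TPM in WT and 0.252, 1.1 and 0.487 TPM in KO clones, and PGF, placental growth factor, had 1.72 and 1.48 against 0.323, 0.449 and 0.978 TPM. HK2, hexokinase 2, was at 17.4 and 17.3 against 14.5, 13.4 and 12.6 TPM, a difference of -0.35. The collagenase MMP1 overlapped, since KO clone 1 was above both WT clones (1.63 and 2.41 against 3.34, 0.0812 and 0.259 TPM). NGFR, CXCL14 and CXCR4 stayed under the filter. NGFR was at 1.19 and 0.814 against 0.0124, 0 and 0.0858 TPM and CXCL14 at 0.997 and 0.451 against 0.277, 0.0424 and 0.0624 TPM, while CXCR4 was under 0.5 TPM in all 5 libraries.

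Large differences of each direction were spread unequally over expression levels. Between 1 and 5 TPM, taken as the higher of the group means, 5 of 2461 genes were higher by at least 1 without overlap and 23 were lower. Between 5 and 50 TPM there were 6 and 20 of 7124 genes. Between 50 and 500 TPM the counts were 3 and 2 of 2793, the higher ones being HMOX1, GCLM and RPL3P4 and the lower ones TAGLN and LY6E. At 500 TPM and above FTH1 alone qualified among 210 genes. The higher genes thus reached the abundant end of the range through HMOX1, GCLM, FTH1 and the pseudogene RPL3P4. The other large higher genes all lay under 50 TPM, and 43 of the 45 lost genes did so in WT. Small non-overlapping differences behaved otherwise, with 29.0% of the most abundant genes lower against 6.19% higher, an imbalance that moves with scaling as above.

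**Figure D3:**
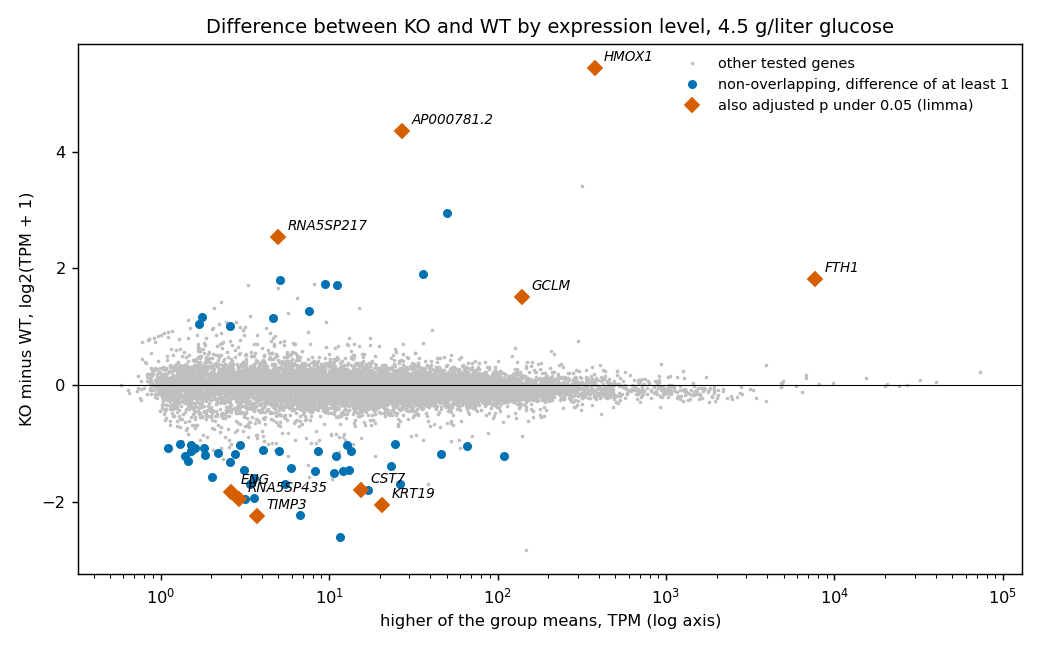
KO minus WT difference on log2(TPM + 1) against the higher of the group means in TPM (log axis) for the 12693 tested genes at 4.5 g/liter glucose. Dots are genes, blue points are non-overlapping genes that differ by at least 1, and orange diamonds are the 10 genes also called by limma. HMOX1 and FTH1 stand alone at the upper right, and the lost genes crowd below 50 TPM.

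Core metabolism and growth genes had medians close to WT. Of 33 tested glycolysis genes 1 was non-overlapping and higher and 10 lower, with no call, a median of -0.12 and a range of -0.35 to 0.33. Of 46 nuclear genes of the respiratory chain 3 were higher and 7 lower, with a median of -0.07, and of 13 mitochondrial transcripts 3 were higher, with a median of 0.03. Mitotic genes (26 tested, 3 higher and 6 lower) and replication genes (32 tested, 2 and 7) had medians of -0.06 and -0.06. Endoplasmic reticulum chaperones (26 tested, none higher and 5 lower) and genes of p53 and cell cycle arrest (28 tested, 1 and 1) had medians of -0.02 and 0.01. None of these genes was called. Over all tested genes 6.18% were non-overlapping and higher and 14.9% lower. The lower share was above this in glycolysis, mitotic, replication and chaperone genes, and barely so in respiratory chain genes. The higher share was above it in mitochondrial transcripts and mitotic genes, and barely so in respiratory chain and replication genes.

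Single clones also had genes of their own. In KO clone 1, 16 genes (0.126%) were at least 1 above all 4 other libraries and 54 (0.425%) at least 1 below. Interferon-induced genes were prominent among the first. IFIT3 was at 27.2 and 22.1 TPM in WT and 67.8, 17.7 and 18.5 TPM in KO clones, IFIT2 at 10.9 and 9.95 against 30.2, 7.13 and 9 TPM and IFI44 at 29.9 and 29.7 against 83.6, 27.7 and 32.5 TPM, each high in KO clone 1 only. Of 45 tested interferon genes 10 were at least 0.5 above both WT clones in KO clone 1, 3 in KO clone 2 and 5 in KO clone 3, beside 1.43, 3.31 and 3.20% of all tested genes. The list as a whole was not raised in KO clone 1, where its median was -0.08 and 4 members were at least 0.5 below both WT clones. MAGED1, a MAGE family gene on chromosome X, was at 34.8 and 42.1 against 0.0637, 47.8 and 34.2 TPM, nearly absent from KO clone 1. NEO1, the netrin receptor neogenin, was at 8.07 and 12.5 against 0.14, 13.8 and 36.2 TPM. It was lowest in KO clone 1 and highest in KO clone 3. These genes were picked after their values were seen.

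Amino acid synthesis genes and other ATF4 targets ran in opposite directions in the outer clones. PSAT1, an enzyme of serine synthesis, was at 91.4 and 111 TPM in WT and 38.4, 186 and 323 TPM in KO clones. Asparagine synthetase ASNS was at 44.2 and 46 against 28.6, 49 and 104 TPM. Both were lowest in KO clone 1 and highest in KO clone 3. Over 32 tested ATF4 and amino acid stress genes the median difference from WT was -0.39 in KO clone 1, 0.14 in KO clone 2 and 0.56 in KO clone 3. KO clone 3 had 17 of the 32 at least 0.5 above both WT clones, and KO clone 1 had 11 at least 0.5 below, beside 3.20% and 5.58% of all tested genes. ATF4 itself was at 183 and 195 against 165, 202 and 258 TPM. In KO clone 3, 37 genes (0.291%) were at least 1 below all other libraries, among them BMP4 (98.6 and 92.6 against 106, 109 and 24.7 TPM), IGFBP3 (107 and 97.3 against 169, 84.9 and 32.2 TPM) and the interleukin IL18 (38.4 and 25.5 against 66.5, 27.3 and 5.31 TPM).

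KO clones 2 and 3 shared differences from WT that KO clone 1 lacked. KISS1, a metastasis suppressor peptide gene, was at 157 and 140.5 TPM in WT and 234, 9.81 and 2.73 TPM in KO clones, high in KO clone 1 and low in the others. PXDN, a peroxidase of the basement membrane, was at 46.1 and 43.2 against 69.5, 10.3 and 9.15 TPM, and LAMP3, a lysosomal membrane protein, at 11.7 and 9.31 against 13, 0.659 and 1.26 TPM. Annexin A1, ANXA1, was at 592 and 695 against 372, 1254 and 1195 TPM. Of the 52 genes called without KO clone 1, 25 had KO clone 1 on the other side of the WT mean, 11 of the 21 higher and 14 of the 31 lower. Those 25 differences describe KO clones 2 and 3 only, whereas the 10 genes called with every clone were among the 52.

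Part of this pattern followed chromosome position, examined after the clone differences had been seen. Of the 21 genes called higher without KO clone 1, 6 lie on chromosome 9. The 23 expressed genes between 70 and 85 Mb of chromosome 9 (GENCODE v44 on GRCh38, mean of at least 5 TPM in WT or KO) had median differences from WT of -0.71 in KO clone 1, 0.86 in KO clone 2 and 0.81 in KO clone 3. The 300 expressed genes of chromosome X had medians of -0.54, 0.28 and 0.28, with 23, 261 and 252 of them above the WT mean. Chromosome 14 was low in KO clone 3 (median -0.44 over 326 genes, 11 above the WT mean), chromosome 13 low in KO clones 2 and 3 (-0.29 and -0.28) and chromosome 4 high in the same clones (0.26 and 0.25). WT clone 1 differed from WT clone 2 by -0.14 on chromosome X, by -0.18 in the chromosome 9 region and by -0.08 on chromosome 4, the next in size. The same clones kept these medians without glucose, for chromosome X -0.52, 0.30 and 0.27. Whether gene dosage takes part was not tested. Of 362 windows of 5 Mb with at least 10 such genes, 13 had a median of at least 0.5 in size in some KO clone, and of 25 placed genes with large differences and at least 5 TPM, 1 lay in such a window. The called genes HMOX1, FTH1, GCLM, TIMP3, KRT19, CST7 and ENG had neighbours whose medians lay between -0.12 and 0.09.

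**Figure D4:**
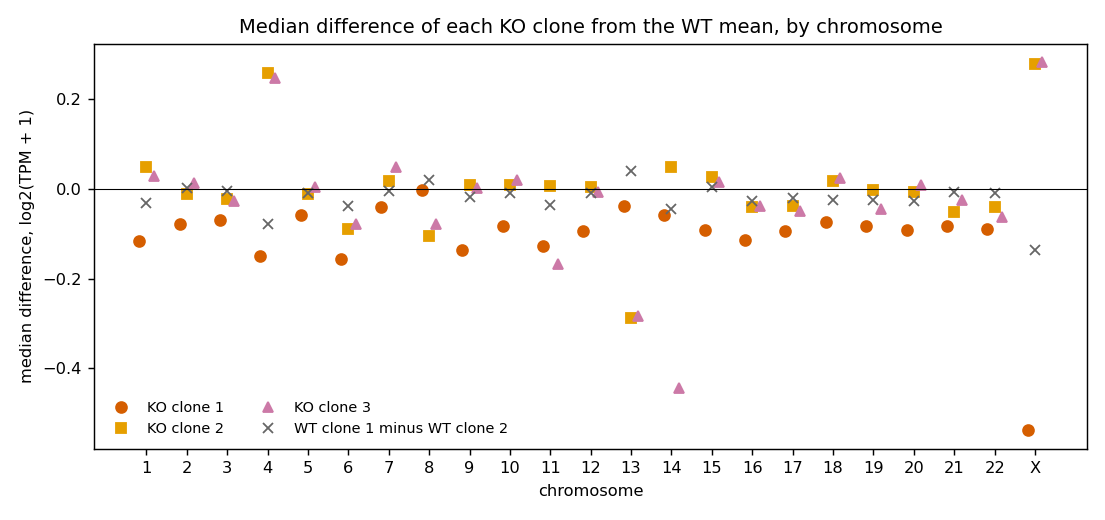
Median difference from the WT mean on log2(TPM + 1) over the expressed genes of each chromosome, for KO clones 1, 2 and 3, with WT clone 1 minus WT clone 2 as crosses. KO clone 1 is at -0.54 on chromosome X where the other knockouts are at 0.28, and KO clone 3 is at -0.44 on chromosome 14.

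The same clones without glucose give a second reading, which is not independent because clone differences persist. Of the 15 large higher genes 5 were non-overlapping and higher again (33.3%), 2 were non-overlapping in the opposite direction, and 7 had the same sign. Over all tested genes 5.82% were non-overlapping and higher at 0 g/liter and 7.86% lower. The 5 were HMOX1, FTH1, GCLM, GALNT9 and the pseudogene NUS1P1. Of the 45 large lower genes 22 were lower again without overlap (48.9%), none was opposite and 36 had the same sign. Among protein-coding genes 18 of 26 repeated and among the others 4 of 19.

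TIMP3, KRT19, CST7 and ENG were low in KO without glucose too. TIMP3 was at 10.4 and 12.2 TPM in WT and at most 0.011 TPM in KO clones, and KRT19 was at 21.6 and 19.9 against 4.13, 6.06 and 5.04 TPM. CST7 was at 27.5 and 22.8 against 11.8, 6.11 and 9.73 TPM and ENG at 1.23 and 1.26 against 0.0237, 0.0186 and 0 TPM. By contrast BACH1 transcript overlapped between the groups there, at 19.7 and 20.6 against 12.6, 23.9 and 17.2 TPM.

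On the log2 scale the gap of HMOX1 was smaller without glucose, although in TPM it was wider. For FTH1 and GCLM no change of the gap with glucose was called. HMOX1 was at 532 and 568 TPM in WT and 1356, 1780.0 and 2033 TPM in KO clones, so the WT clones without glucose exceeded the KO clones with glucose. Its difference was 1.63 there against 5.43 with glucose, and the change between them was the 1 interaction that limma called (0.00788% of genes, adjusted p = 0.0118). That fit had no term for the clone, although each clone gave a library at both glucose levels. FTH1 was at 5704 and 5444 against 15349.9, 11557 and 16800.5 TPM and its FTH1 to FTL ratio at 0.956 and 1.04 against 3.15, 2.36 and 2.86. GCLM was at 119 and 154 against 188, 275 and 245 TPM. Neither AP000781.2 (11.3 and 12.2 against 11.7, 15.9 and 4.33 TPM) nor RNA5SP217 (7.1 and 5.84 against 5.02, 4.39 and 3.94 TPM) was higher in KO without glucose. RPL3P4 and CKS1BP3 were not either.

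**Figure D5:**
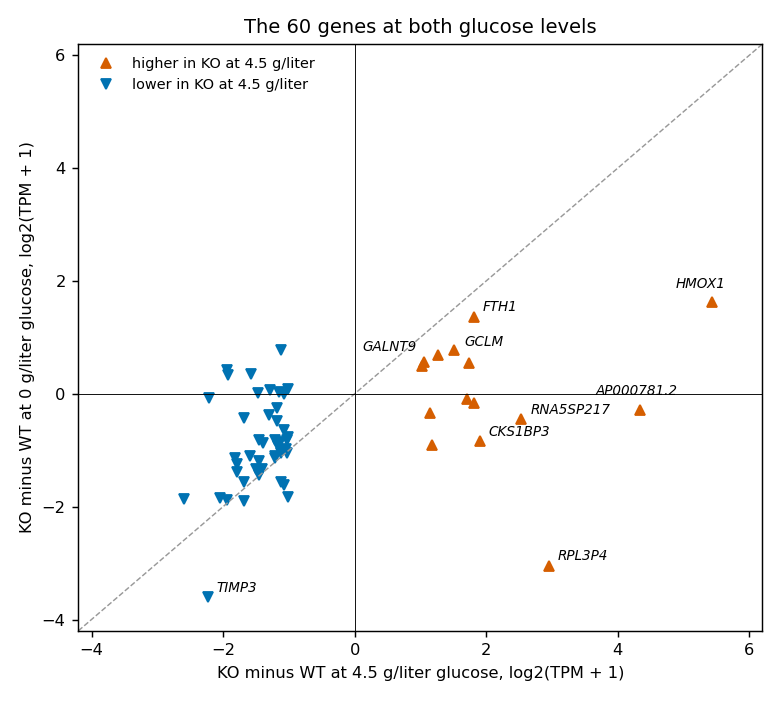
KO minus WT difference on log2(TPM + 1) at 4.5 g/liter glucose (x axis) and at 0 g/liter (y axis) for the 15 higher and 45 lower genes chosen at 4.5 g/liter. Each point is a gene and the dashed line marks equal differences. HMOX1 is at 1.63 and AP000781.2, RNA5SP217, CKS1BP3 and RPL3P4 are below 0, while most lower genes stay below 0 and TIMP3 reaches -3.61.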

How the data were processed

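Poly-A RNA of MDA-MB-231 clones was sequenced by the authors as single-end reads, and per the labels and methods transcripts of GRCh38.p12 were quantified by kallisto 0.44.0. The authors deposited TPM per gene symbol. Their DESeq2 counts are not analysed here, so no count test was run. The 27 symbols that had become dates (0.143 to 0.151% of the TPM) were left out. In R 4.3.3, log2(TPM + 1) of the 12693 genes was fitted with limma 3.58.1 over 10 libraries in 4 groups (eBayes with trend, two-sided, Benjamini-Hochberg). The fit had been checked on simulated data with independent libraries, a check that does not cover correlation between libraries of the same clone. "Non-overlapping" means every KO value above or below every WT value. Positions come from GENCODE v44, which is not stated to be the authors' annotation.

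The members and gene lists were chosen with earlier results of these data known. Named genes are called genes, the largest non-overlapping differences by level (12 at 5 TPM or more, 8 at 50 or more, 5 at 1 to 5 per direction), up to 4 members per list, and BACH1, its neighbours and genes of the study's text. Others, such as clone-specific genes and overlapping family members, were chosen once their values had been seen. The alternatives tried were a smaller pseudocount, other filters, other scalings, clone as a block, no trend, another threshold and each library left out. Equal clone numbers of WT and KO name different clones. Figures were drawn with matplotlib 3.10.9.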

Additional observations from a re-analysis of the deposited data

Results flagged for a closer look

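HMOX1 stood out because its KO effect differed between the glucose levels. The KO minus WT difference was 3.80 larger at 4.5 than at 0 g/liter glucose on the log2 scale (standard error 0.33, adjusted p = 0.0118 by limma over 12693 genes, interaction of genotype and glucose). The fit took libraries of the same clone at both glucose levels as independent. With glucose, WT clones were at 6.58 and 8.78 TPM and KO clones at 274, 470.4 and 394 TPM. Without it, WT clones were at 532 and 568 TPM and KO clones at 1356, 1780.0 and 2033 TPM.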

How the results depend on the processing

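All 30 genes followed under the alternatives kept their direction wherever they could be fitted. Of the calls against 5 higher and 5 lower, no filter gave 3 higher, a mean of at least 5 TPM gave 3 higher and 1 lower, and the 5 libraries at 4.5 g/liter alone gave 3 higher and 0 lower (HMOX1, FTH1 and AP000781.2), where 365 genes were lower at an unadjusted p under 0.05. Leaving out each replicate in turn gave 1 to 6 higher and 1 to 5 lower, fewest without WT clone 1. With KO clone 1 left out at both glucose levels, chosen after seeing the data, 21 were higher and 31 lower. Large non-overlapping genes, 15 higher and 45 lower, became 43 and 76 with a pseudocount of 0.1 and 9 and 17 at a mean of at least 5 TPM. They became 25 to 59 higher and 51 to 92 lower without each replicate, most (59 and 92) without KO clone 1, since fewer libraries overlap less. The unadjusted counts of 122 and 294 were 182 and 188 with median-ratio scaling and 202 and 186 with quantile normalization. With the clone as a replicate block (consensus correlation 0.470) 5 were higher and 5 lower. The block on clone number gave 5 and 7, but equal numbers name different WT and KO clones (deviations of clones numbered 1 and of those numbered 2 correlated at 0.174 and 0.187 across genes). Depth is unknown and TPM of low or short genes carry an unknown sampling error.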
